A study of Mus musculus with 10 samples.

Results

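Heart tissue was compared with mouse embryonic fibroblasts (MEF), the end point and the starting point that the series set around its induced cardiomyocyte-like cells (iCM). The comparison was made between the array titled Heart and the array titled MEF, chosen by title, which are 2 of the 10 arrays of the series. All 23473 probes of the Toray mouse chip entered it. Both samples were untreated, and the sources used here give no strain, age, sex or number of animals for either. The other 8 arrays are iCM: MEF given the factors called GMT (Gata4, Mef2c and Tbx5) by retrovirus, alone or with a synthetic miR-133a mimic, and sorted for GFP under the α-MHC promoter. Of these, 6 belong to a first round, with 1 array of GMT and 1 of GMT/miR-133 at each of days 3, 7 and 18, and 2 were made later, at day 7: an array with Snai1 added, an epithelial-mesenchymal transition factor, and its GMT/miR-133 control. The description of that control names GMT alone, against its title. In the authors' value table, 4 of 10 columns, those of days 3 and 7 in the first round, match the scanner file of the other day best, so day 3 and day 7 values below follow the sample each scanner file was deposited under. The heart and MEF columns each match their own file best.

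The heart beats through cardiomyocytes, whose sarcomeres slide actin and myosin filaments and whose mitochondria burn mainly fatty acids to supply them. Heart tissue also holds endothelial cells, fibroblasts, smooth muscle and immune cells, so its RNA is a mixture. Embryonic fibroblasts are dividing mesenchymal cells that make collagen-rich matrix and can be driven toward a cardiac-like state by cardiac transcription factors. The files used here do not pair probes with genes, so no cardiac or fibroblast gene can be named, the tissue and cell labels could not be checked against markers, and no probe sequence is printed. Probes are given by their IDs and described by size, level and behaviour on the other arrays. In bulk RNA, fewer cells of a type and less RNA per cell cannot be told apart.

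Each of heart and MEF has 1 array, so no difference has a replicate check and no p-value is given. Both arrays were scanned in the same session at a detector gain of 35. The first-round day 7 arrays were scanned in a session of their own at a gain of 30. For those arrays, day and scan session cannot be told apart. Summed over probes, the spot intensities came to 5591622 in heart and 8381184 in MEF. The chip's own positive control spots were dimmer in heart as well: set 2 had a median intensity of 2742 in heart and 6588 in MEF, and set 3 had 6720 in heart and 16138 in MEF. Both control sets thus stood at −1.26 (log2, heart minus MEF). The part of this difference in the results below was not tested. Within an array, the copies of a positive control spread by 0.16 and 0.20 in heart and by 0.12 and 0.13 in MEF (log2 SD, 23 or 24 spots). These values cover spotting and scanning on 1 array and not the spread between samples. Spots rose above the detection cutoff, the 95th percentile of the array's blank spots, at 20318 probes (86.6%) in heart and 20583 probes (87.7%) in MEF. The cutoff was an intensity of 16 in heart and 17 in MEF. It is lenient, since 33.0% of spots that carry no probe exceeded it in heart and 42.0% in MEF.

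After quantile normalization, 20825 probes (88.7%) lay within 2-fold. This share includes dim probes, which the offset added before the logarithm draws together, so it cannot be read as likeness of the samples alone. Among 10 equal groups by mean level, described below, the dimmest 4 held no probe at least 2-fold apart. In the brightest group, 33.1% of probes were at least 2-fold apart. At least 2-fold, 1268 probes were higher in heart (5.4% of all probes) and 1380 were lower (5.88%). At least 4-fold, 462 probes were higher in heart (1.97%), called heart-high here, and 338 were lower (1.44%), called MEF-high. In the authors' value table, 2844 of 20990 probes were at least 2-fold higher in heart and 3136 were lower.

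The balance between the directions changed with the size of the difference. At least 8-fold, 201 probes were higher in heart (0.856%) and 117 lower (0.498%). At 16-fold the counts were 94 higher (0.4%) and 25 lower (0.107%), and at 32-fold 56 higher (0.239%) and 8 lower (0.0341%). At 64-fold, 31 probes were higher in heart (0.132%) and 2 were lower (0.00852%). The heart side therefore held 47.9% of the probes at least 2-fold apart, 57.8% of those at least 4-fold apart, 79.0% of those at least 16-fold apart and 93.9% of those at least 64-fold apart. The lean toward heart at 4-fold and 8-fold depended on the processing. With each array set to its median, 293 were at least 4-fold higher in heart and 467 lower, so the heart side held 38.6%, and 126 were at least 8-fold higher and 140 lower. In the authors' value table, 987 were at least 4-fold higher and 1015 lower, a heart side of 49.3%. At 16-fold the heart side kept the larger count under all 9 other settings compared, between 59.1% in the authors' value table and 82.3% with only heart and MEF normalized together. With each array set to its median it was 69 higher and 32 lower at 16-fold.

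**Figure D1:**
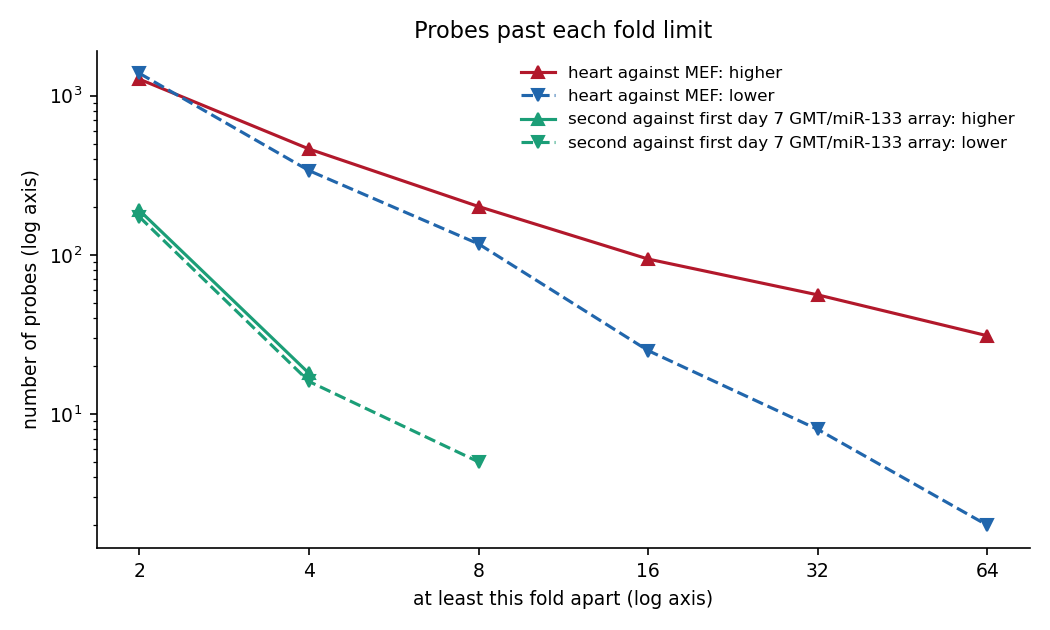
Number of probes (vertical, log axis) past each fold limit (horizontal, log axis), for heart against MEF and for the 2 day 7 arrays titled GMT/miR-133; points with no probe are not drawn. The heart-higher line starts below the heart-lower line at 2-fold, with 1268 and 1380 probes, and ends above it at 64-fold, with 31 and 2.

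For scale, the 2 arrays titled GMT/miR-133 at day 7, made in different rounds and scanned in different sessions, differed at least 2-fold at 363 probes (1.55%) and at least 4-fold at 34 (0.145%). None differed 16-fold. Over all probes, the differences had a standard deviation of 0.80 (log2) for heart minus MEF and 0.31 for those 2 arrays. Within sessions, GMT/miR-133 and GMT arrays of the same day differed at least 2-fold at 32 probes at day 3, 79 at day 7 and 34 at day 18. At 4-fold, those 3 pairs differed at 0, 1 and 3 probes. These pairs are cultured cells, and the spread between heart samples or between MEF samples was not measured.

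The spread of the differences was next described along signal level, the mean level of the same 2 arrays. With the offset of 50 added before the logarithm, the lowest detected level was 5.72 (log2 normalised intensity) on each of heart and MEF, and dim probes are drawn together. When the probes were put into 10 equal groups by the mean level of both arrays, the dimmest 4 groups held no probe at least 2-fold apart. The fifth held 34 and the sixth 241, or 10.3% of its probes. The share climbed to 18.6%, 23.6%, 25.8% and 33.1% in the seventh to the tenth. All 800 probes at least 4-fold apart lay in the brighter 5 groups, 259 of them in the brightest. That the dim groups held none is set by the offset and by grouping on the mean, since a pair of values of which one is at the floor and the other 4-fold above it already has a mean in the brighter groups. It is no property of the probes. In the authors' value table, which has no offset that could be seen and was compared over the 20990 probes given on both arrays, the brighter 50% of the probes held 55.9% of those 4-fold apart, and with an offset of 16 it was 95.5%.

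The brightest group held 371 probes at least 2-fold higher in heart and 407 lower, but 159 at least 4-fold higher and 100 lower. Its median difference was −0.14 (log2), against −0.0024 to 0.0076 in the dimmest 4 groups. At a mean level of at least 12, 215 of 313 probes (68.7%) were lower in heart, with a median of −0.58, and 21 were at least 4-fold higher and 9 at least 4-fold lower. At a mean level of at least 13, 4 of 131 probes were at least 4-fold higher and 4 lower. With each array set to its median, the median difference was −0.68 in the brightest group and of 0.16 in the dimmest. The dimmer total and control spots of the heart array are given above, and their part here was not tested.

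**Figure D2:**
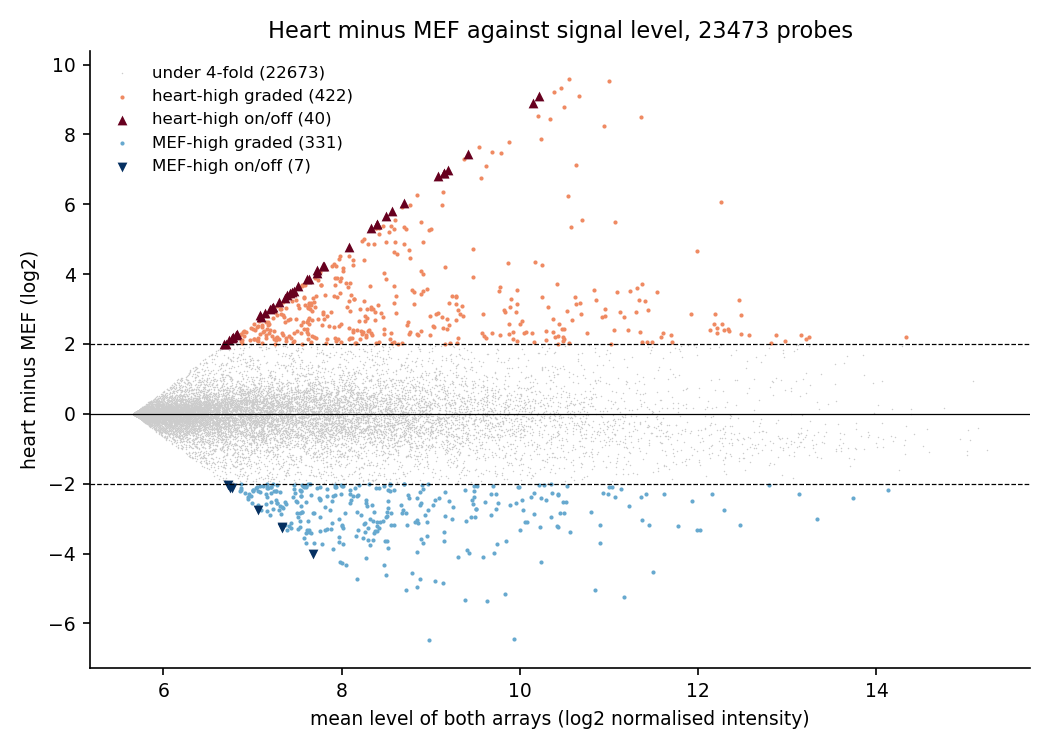
Heart minus MEF (log2, vertical) against the mean level of both arrays (log2 normalised intensity, horizontal) for 23473 probes; dashed lines mark 4-fold, triangles the on/off probes and coloured dots the graded ones. Differences fan out from the dim end along a straight edge set by the floor, the largest reach 9.59 toward heart and −6.47 toward MEF, and above a level of 12 most points lie below 0.

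**Figure D3:**
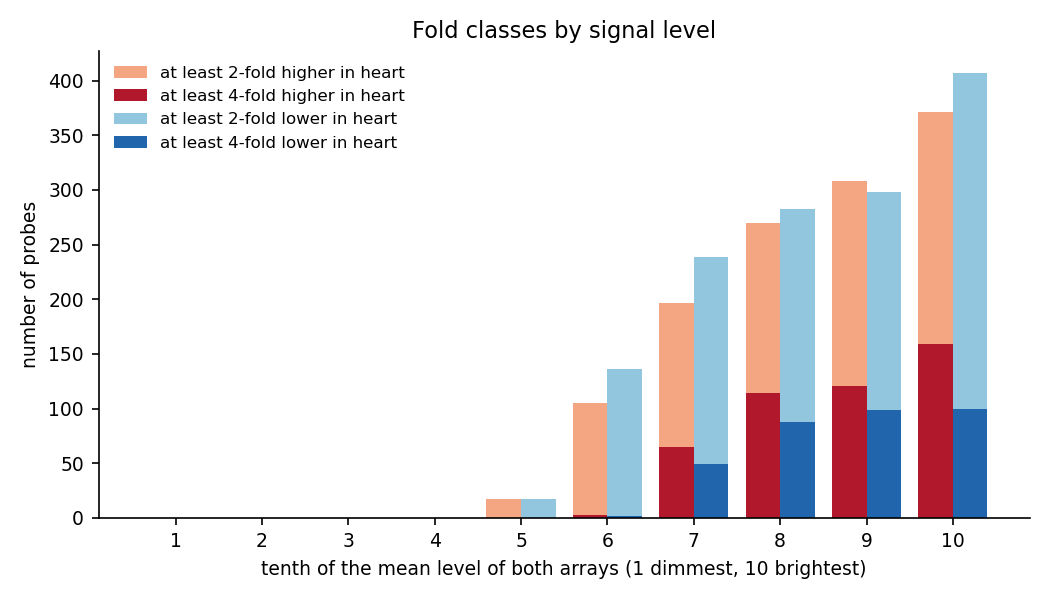
Number of probes at least 2-fold and at least 4-fold apart (vertical; the 4-fold part is drawn darker within the 2-fold bar) in 10 equal groups by mean level (horizontal, dimmest to brightest). The dimmest 4 groups are empty, and the brightest holds 371 probes at least 2-fold higher and 407 lower in heart.

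Fluorescence was gathered on fewer probes in heart. The 10 brightest probes gave 8.47% of the background-corrected signal in heart and 5.04% in MEF, and the 100 brightest gave 30.2% in heart and 26.3% in MEF. It took 326 probes to reach 50% of the signal in heart and 398 in MEF, while the 8 iCM arrays took 365 to 452. A probe's brightness also depends on how well it hybridises, so these are shares of fluorescence and not of RNA. None of the 10 brightest probes of heart was among the 10 brightest of MEF. Of the 100 brightest on each array, 39 were shared, and of the 1000 brightest, 675 (67.5%). The 462 heart-high probes gave 23.2% of the signal in heart and 1.62% in MEF. On the iCM arrays, which took no part in choosing them, they gave 4.02% to 6.28%. The 338 MEF-high probes gave 1.02% of the signal in heart and 8.86% in MEF, and 3.10% to 4.69% on the iCM arrays. Both groups of probes were chosen as bright on one of the end arrays and dim on the other. Values in between on a further array can come in part from that choice, and how large that part is was not tested.

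A difference of 4-fold could be on/off, with the dimmer array at or below the detection cutoff, or graded, with both arrays above it. Detection alone separated the samples little: 19552 probes were detected on both arrays, 2124 on neither, 766 in heart only and 1031 in MEF only. Of probes detected on a single array, 702 of the 766 and 1007 of the 1031 differed by under 2-fold on the offset scale.

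Among heart-high probes, 40 (8.66%) were on/off and 422 (91.3%) graded. Among MEF-high probes, 7 (2.07%) were on/off and 331 (97.9%) graded. Under the stricter 95th percentile of spots without a probe, an intensity of 18 in heart and 20 in MEF, the on/off counts became 76 of 462 (16.5%) for heart-high and 20 of 338 (5.92%) for MEF-high probes. At least 8-fold, with the first cutoff, they were 29 of 201 (14.4%) and 3 of 117 (2.56%). Heart-high probes thus held the larger on/off share at both cutoffs and both fold limits. The authors' value table leaves dim probes empty, by a rule not stated in the labels or headers. It left 23 of the 40 heart-high on/off probes empty in MEF and 1 of the 7 MEF-high ones empty in heart, against 2 of 422 and 1 of 331 graded probes, while 2008 of all 23473 probes were empty in MEF and 1791 in heart.

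Graded probes were far from a uniform group. The 422 heart-high ones had a median intensity of 620 in heart and 71.5 in MEF. In MEF their intensities ran from 18 to 10457: 110 (26.1%) were under 34, which is 2 times the cutoff, 180 (42.7%) reached 100 and 31 reached 1000. The 331 MEF-high ones had a median intensity of 60 in heart and 923 in MEF. In heart they ran from 17 to 5368, with 72 (21.8%) under 2 times the cutoff, 108 (32.6%) at 100 or more and 8 at 1000 or more. Graded differences had a median size of 2.77 (log2) toward heart and 2.63 toward MEF. For on/off probes the size is a lower bound, taken against the lowest level detected on the dim array: its median was 3.72 for heart-high probes, within 1.96 to 9.04, and 2.72 for MEF-high probes, within 2.02 to 3.96.

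At the 4-fold limit the values ran on without a step. M400004083, just inside, had an intensity of 1689 in heart and 668 in MEF, which are under 4-fold apart before normalization. Its normalized difference of 2.00 (log2) became 1.46 with each array set to its median. M200007409, just outside, had 157 in heart and 38 in MEF. On the MEF-high side, M200001481, just inside, had 36 in heart and 277 in MEF, and M400005441, just outside, had 23 in heart and 213 in MEF. These pairs fall on either side of a limit that no gap in the values marks. Of the 6 probes named just inside it, 6 lost the 4-fold call without background subtraction. The same 6 lost it when fewer arrays were quantile normalized together. With the local background, or with each array set to its median, 5 of the 6 lost it.

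Bounds for on/off probes hold for the main background correction and scaling and can be lower under others. The brightest on/off probe on the heart side was M400011276, with an intensity of 29391 in heart and 15 in MEF, at least 526-fold. Its level was 14.76 in heart, 5.67 to 5.72 on the iCM arrays and 5.67 in MEF. Of the 10 arrays, heart alone had it above its own cutoff. M300012836 had 19966 in heart and 17 in MEF, at least 473-fold, and levels of 14.60 in heart, 6.53 to 10.98 on the iCM arrays and 5.70 in MEF. M400011736 had 5779 in heart and 17 in MEF, at least 172-fold, with a level of 13.14 in heart and 6.04 to 8.52 on the iCM arrays. Its difference of 7.44 (log2) became 4.93 with the local background. The remaining pair behaved differently. M200009295 had 4444 in heart and 17 in MEF, at least 125-fold, with a level of 12.68 in heart and 10.31 to 11.85 on the iCM arrays. M200003487 had 4187 in heart and 17 in MEF, at least 117-fold, and its iCM level of 12.30 to 14.39 was above the 12.59 of heart on 7 of 8 arrays. The files used here do not say which probes read the factors that the virus supplied.

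On the MEF side the on/off probes reached an intensity of 808 in MEF. M200015463 had an intensity of 14 in heart and 808 in MEF, at least 15.5-fold, M400006547 had 16 and 479, at least 9.5-fold, and M200002418 had 16 and 472, at least 9.4-fold. On the iCM arrays M200015463 was at a level of 5.68 to 5.90, against 5.67 in heart and 9.68 in MEF. M200002418 was at 6.26 to 7.00 there, above the 5.70 of heart and below the 8.95 of MEF. M200002028 kept its signal in iCM: it had 15 in heart and 324 in MEF, at least 6.6-fold, and a level of 7.73 to 9.56 on the iCM arrays, on either side of the 8.44 of MEF. M200001871 had 16 in heart and 204 in MEF, at least 4.3-fold, and was at a level of 5.67 to 5.72 on all iCM arrays, against 5.70 in heart. Its difference of −2.13 (log2) was −1.76 without background subtraction, −1.01 with the local background and −1.94 with heart and MEF normalized alone, so its 4-fold call was lost under these settings.

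Several probes bright in both samples were graded. M200003422 had 44447 in heart and 10457 in MEF, a difference of 2.20 (log2), and a level of 13.92 to 14.70 on the iCM arrays, between 15.43 in heart and 13.23 in MEF. M400001115 had 41209 in heart and 576 in MEF, a difference of 6.08, and lay at 11.79 to 13.45 on the iCM arrays. On the MEF side, M400007260 had 5368 in heart and 36953 in MEF (−2.18), M400010831 had 4068 and 31169 (−2.42), and M400008897 had 2662 and 21073 (−2.29). M400008897 was at −0.84 with the local background, which ends its 4-fold call. These 3 were at 12.02 to 14.89 on the iCM arrays. M200001767 had 2274 in heart and 29692 in MEF (−3.02), and M200000992 had 1123 and 18960 (−3.18). Both were below their heart level on most iCM arrays. M200001767 was at 7.60 to 11.12 on 7 of 8, against 11.82 in heart, and at 12.12 on the day 7 GMT array. M200000992 was at 7.44 to 9.87 on 6 of 8, against 10.88 in heart, and at 11.80 and 11.10 on the first-round day 7 arrays. The first-round day 7 arrays also differ from the others in scan session.

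The largest differences toward heart fell into separate patterns on the iCM arrays. Of the 12 largest, 7 stayed below the midpoint between heart and MEF on all 8 iCM arrays, 4 lay above it on all 8, and M300012836, described above, was above it on 1. M200000622 had an intensity of 42753 in heart and 20 in MEF, a difference of 9.59 (log2). It was at a level of 15.34 in heart, 5.69 to 5.79 on the first-round iCM arrays (median 5.74), 5.70 and 5.83 on the later ones, and 5.75 in MEF, so iCM and MEF did not stand apart. M400000660 likewise had 33295 in heart and 21 in MEF (9.21), with 5.70 to 5.87 on the iCM arrays. M400010807, saturated in heart at 65535 and at 44 in MEF, differed at least 741-fold and was at 6.09 to 6.66 on the iCM arrays. M300003688 had 53450 in heart and 113 in MEF (8.50) and was at 7.08 to 7.45. M300000730 was at 15.21 in heart, 6.60 to 7.19 on the iCM arrays and 6.10 in MEF.

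The 4 probes above the midpoint on all iCM arrays were M400010954, M400000392, M400000521 and M200000223. M400010954 had 36868 in heart and 22 in MEF (9.33), with levels of 12.63 to 13.42 on the first-round iCM arrays and 14.09 and 14.67 on the later ones, against 15.13 in heart. M400000521 had 18615 in heart and 38 in MEF (8.43), with 11.37 to 12.79 on the iCM arrays. M200000223 had 33688 in heart and 87 in MEF (8.23), with 13.99 to 15.06 on the iCM arrays and 15.06 in heart. M400000392 had 17229 in heart and 29 in MEF (8.53). It was at 14.46 to 14.94 on the 6 first-round arrays, around its 14.47 in heart, and at 10.85 and 11.32 on the later ones. Among the 7 below the midpoint, M300001745 stood furthest above MEF, at 14.89 in heart, 7.57 to 9.92 on the iCM arrays and 6.10 in MEF. M300000730, given above, was also higher than in MEF on all iCM arrays.

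The 12 largest differences toward MEF were smaller, from −6.47 to −4.73. M200007659 had 18 in heart and 4785 in MEF, and M200009370 had 56 in heart and 9441 in MEF (−6.44). On the iCM arrays M200007659 was at 5.92 to 6.18 on 6 of 8, near its 5.75 in heart. It was at 10.55 and 8.74 on the first-round day 7 arrays, which were scanned in a session of their own. M200009370 was at 8.25 to 9.92, between 6.72 in heart and 13.16 in MEF. Of the 12, 2 lay nearer to MEF than to heart on all 8 iCM arrays: M300006890, at 9.91 to 11.08 against 6.72 in heart and 12.05 in MEF, and M300000141, at 10.43 to 11.75 against 6.72 in heart and 11.55 in MEF. A further 3 probes were detected in heart but lower on all iCM arrays of days 3 and 7. M400005459 had a level of 8.54 in heart and 13.79 in MEF, and 5.72 to 6.13 on the 6 arrays of days 3 and 7. M400000367 had 8.32 in heart and 13.37 in MEF, and 5.75 to 6.02 on those 6. M400000771 had 6.66 in heart and 11.44 in MEF, and 5.72 to 5.89 on those 6. At day 18 all 3 were above heart, at 12.03 and 11.38 for M400005459, 10.72 and 10.35 for M400000367, and 7.92 and 7.31 for M400000771.

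**Figure D4:**
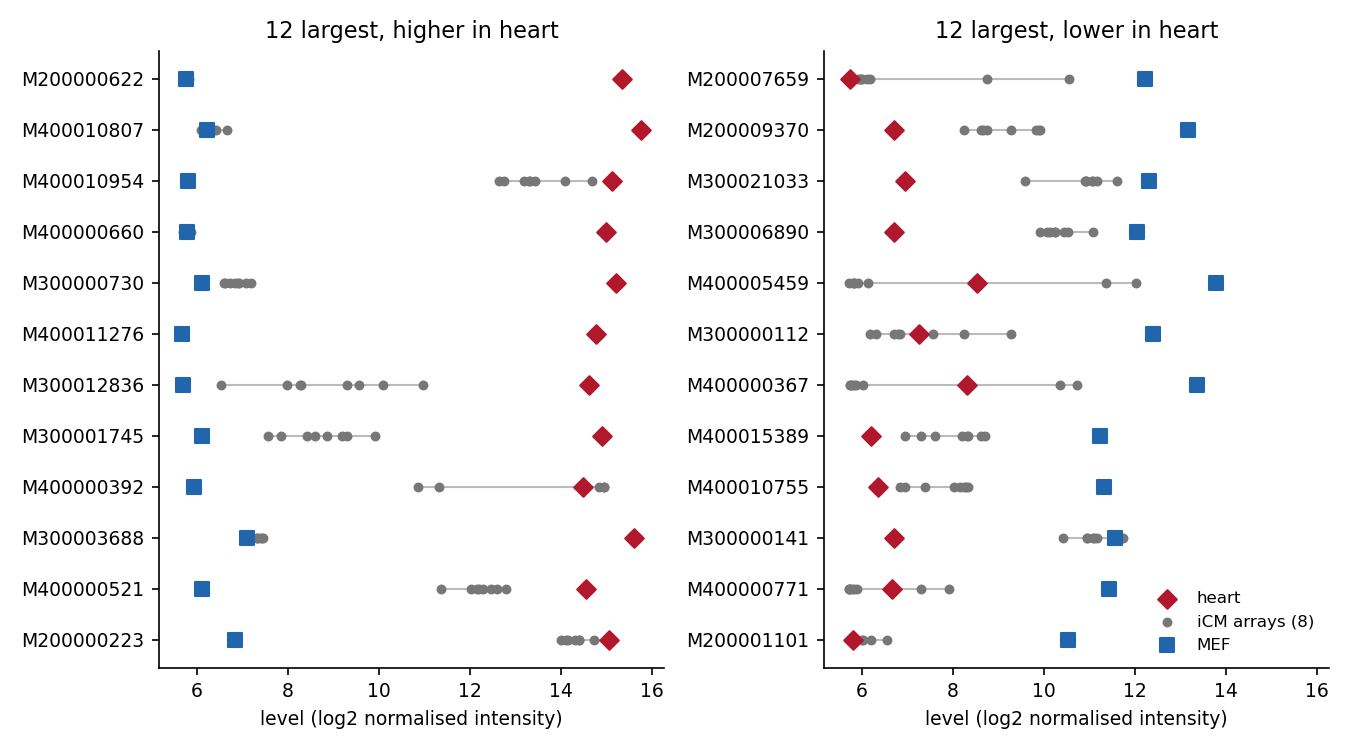
Level (log2 normalised intensity, horizontal) of the 12 probes with the largest difference in each direction: diamonds for heart, grey points for the 8 iCM arrays joined by a line, squares for MEF. On the left panel iCM points lie near MEF for M200000622, near heart for M200000223 and in between for M300001745 and M300012836; on the right panel those of M400005459 split, from 5.72 to 12.03.

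As classes, the end points framed the iCM arrays unevenly. Heart-high graded probes had a median level of 10.06 in heart, 7.33 to 7.85 on the 8 iCM arrays and 6.63 in MEF. Heart-high on/off probes had 9.44 in heart, 5.78 to 6.09 on the iCM arrays and 5.68 in MEF. MEF-high graded probes had 6.81 in heart, 7.33 to 7.99 on the iCM arrays and 9.87 in MEF. The 7 MEF-high on/off probes had 5.70 in heart, 5.89 to 6.11 on the iCM arrays and 8.44 in MEF. The all-probe median was 6.28 to 6.29 on every array, which quantile normalization sets.

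Expressed as the share of the heart minus MEF difference that an array covered, the median over heart-high graded probes was 17.2% ± 4.2 (SD, n = 6 first-round arrays) and over heart-high on/off probes 6.93% ± 3.9. For MEF-high graded probes it was 69.3% ± 6.8 and for the 7 on/off ones 88.1% ± 4.8. These shares have the MEF array in both of their terms and are a description only. The 6 arrays differ in day and arm (GMT or GMT/miR-133), so each SD given here pools conditions and is no spread between replicates. Over all heart-high probes, the share with GMT was 13.1%, 9.85% and 17.4% at days 3, 7 and 18. With GMT/miR-133 it was 19.0%, 17.7% and 21.7%. Over all MEF-high probes it was 70.7%, 64.7% and 59.3% with GMT and 78.5%, 74.6% and 71.2% with GMT/miR-133. On the 2 later arrays, at day 7, the heart-high share was 27.0% for the GMT/miR-133 control and 12.2% with Snai1 added. The MEF-high share on these was 85.8% and 68.9%. The 2 day 7 arrays titled GMT/miR-133 thus stood at 17.7% and 27.0% for heart-high probes. Scaling each array to its median gave a first-round mean of 19.7% for all heart-high and 49.5% for all MEF-high probes, against 16.4% and 69.8% here. Larger differences toward MEF were covered further: the share was 36.5% ± 5.9 for probes 2- to 4-fold lower in heart, 64.5% ± 6.8 for those 4- to 8-fold lower and 79.2% ± 5.8 for those 8- to 16-fold lower. For the 25 at least 16-fold lower it was 75.2% ± 12. Toward heart the share stayed low in every class, at 18.0% ± 4.2, 16.3% ± 3.9, 18.5% ± 5.5 and 13.6% ± 4.6 for the same 4 classes.

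**Figure D5:**
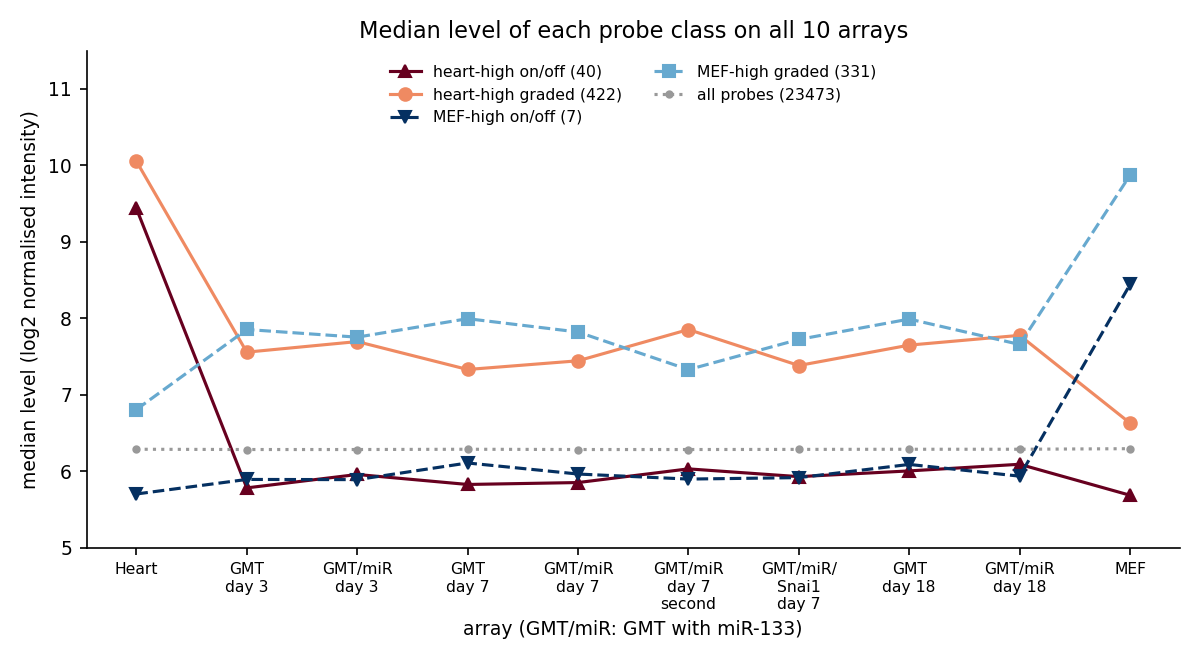
Median level (log2 normalised intensity, vertical) of each probe class on the 10 arrays (horizontal; heart, iCM by day, MEF); lines join the medians, with 1 array per point. Heart-high on/off probes drop to between 5.78 and 6.09 on every iCM array, near the 5.68 of MEF, while heart-high graded probes lie at 7.33 to 7.85.

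Probes were also counted by their distance from either end. Within 2-fold of heart on all 6 first-round iCM arrays were 22 of 422 heart-high graded probes and 0 of 40 on/off ones, against 83.7% of all probes. Within 2-fold of MEF on all 6 were 228 graded and 24 on/off heart-high probes, against 90.2% of all probes. Of MEF-high probes, 101 of 331 graded and 4 of 7 on/off ones were within 2-fold of heart on all 6 arrays, and 54 and 1 were within 2-fold of MEF. Of the 40 heart-high on/off probes, 19 were above the cutoff on all 6 first-round iCM arrays and 4 on none, against 75.6% and 7.68% of all probes. In all, 8 of the 40 were at least 2-fold above MEF on all 6, where 1.13% of all probes were. Below MEF by at least 2-fold on all 6 were 185 of 331 MEF-high graded and 5 of 7 MEF-high on/off probes, against 2.06% of all probes. The classes were chosen by the same heart and MEF values, so the contrasts with all probes can come in part from that choice. How large that part is was not tested. All probes also include the dim groups, which the offset draws together.

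The spread among the first-round iCM arrays was measured at the same probes. The median standard deviation over the 6 arrays was 0.22 (log2) for heart-high probes, 0.32 for MEF-high probes and 0.09 over all probes. It was 0.12 for the heart-high on/off probes and 0.15 for the MEF-high ones, whose iCM medians were near the floor. The value over all probes includes the dim groups, which the offset draws together. Within the brightest 3 signal groups, from dimmer to brighter, it was 0.21, 0.24 and 0.24 for heart-high probes, 0.28, 0.37 and 0.37 for MEF-high probes and 0.17, 0.18 and 0.20 for probes under 4-fold apart. In the seventh group it was 0.11 for heart-high probes, 0.23 for MEF-high probes and 0.14 for probes under 4-fold apart. Days and arms are pooled in these values.

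The probes 4-fold apart were spread over the chip. Each of its 24 blocks held 6 to 32 heart-high probes, with a median of 19.5, and 8 to 22 MEF-high probes, with a median of 13.5. The median difference of a block lay between −0.018 and 0.026 (log2). Probe IDs fall into 3 series. Heart-high probes made up 2.70% of IDs starting with M2, 1.85% of those starting with M3 and 1.38% of those starting with M4, and MEF-high probes made up 2.18%, 1.10% and 1.02%. The M2 series was also the brighter one, with a median level of 6.86 against 6.35 and 6.04. Among probes in the brighter 5 groups, 7.88%, 5.90% and 6.17% of the 3 series were at least 4-fold apart, so the series stood closer once dim probes were set aside. The sources used here do not say what the series stand for.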

How the data were processed

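RNA of heart tissue, MEF and iCM was hybridised with Cy5 to Toray chips, 1 array per sample, per the labels. Each deposited file holds, per the file headers, the unnormalized median intensity of 27456 spots; 2736 are blank and 23474 carry probes. Of 23473 probes, 1 is spotted more than 1 time and was averaged.

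Normexp background correction with parameters from the blank spots and an offset of 50 was followed by quantile normalization of the 10 arrays and log2, in limma 3.58.1 (R 4.3.3). A level is this log2 value, and the offset understates differences of dim probes. A probe was called detected above the 95th percentile of its array's blank spots. With 1 array per group, no test was run.

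Named were the 12 largest differences each way, the 5 brightest on/off and graded probes each way, and probes nearest 4-fold. Alternatives changed background, offset, scaling, cutoff and fold limit, or used the authors' deposited value table. Members, classes and settings were chosen with earlier results of these data known. The number of arrays limits the precision. The gene and marker lists could not be applied, since probes carry no gene names here.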

Additional observations from a re-analysis of the deposited data

Results flagged for a closer look

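At 8 of the 800 probes at least 4-fold apart between heart and MEF, all 6 first-round iCM arrays moved at least 2-fold away from MEF in the direction opposite to heart. They are 4 of 462 heart-high probes (0.866%), where 2.06% of all probes were at least 2-fold below MEF on all 6. The others are 4 of 338 MEF-high probes (1.18%), where 1.13% of all probes were above. The heart-high share is thus below the general one and the MEF-high share is near it. Heart-high probes near the floor in MEF cannot fall 2-fold. The difference between the 2 contrasts was not tested, heart has 1 array, and both contrasts share the MEF array.

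For 4 of them heart was above MEF and iCM below. M300005685 was at 13.81 in heart (log2 level), 5.70 to 6.11 on the first-round iCM arrays and 8.33 in MEF, a mean iCM minus MEF difference of −2.47. M200006659 was at 10.74 in heart, 5.72 to 6.12 in iCM and 7.18 in MEF, a mean of −1.33. M200006237 was at 11.35 in heart, 5.75 to 5.98 in iCM and 8.69 in MEF, a mean of −2.87. M200005139 was at 11.01 in heart, 7.00 to 7.79 in iCM and 8.93 in MEF, a mean of −1.62. The 2 later iCM arrays were below MEF at all 4.

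For the other 4, heart was below MEF and iCM above. M200004359 was at 8.02 in heart, 12.83 to 13.30 on the first-round iCM arrays and 11.66 in MEF, a mean iCM minus MEF difference of 1.41. M200009317 was at 6.41 in heart, 11.11 to 11.69 in iCM and 9.90 in MEF, a mean of 1.53, but 1 of the later arrays was at 9.45. M200007578 was at 6.97 in heart, 11.64 to 11.99 in iCM and 10.15 in MEF, a mean of 1.64. The later arrays had it at 10.69 and 10.84, under 2-fold above MEF. M200014040 was at 6.08 in heart, 10.93 to 11.89 in iCM and 8.66 in MEF, a mean of 2.61. Their genes are not named in the files used here.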

How the results depend on the processing

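No group had the 4 arrays an outlier test needs, and no paired analysis was possible because heart and MEF have 1 array each and no result comes from a test. No named difference turned its sign. Of the 39 named probes beyond those at the 4-fold limit, 22 moved over 1.5 times with the local background and 22 with an offset of 16, as did 27 of the 36 given in the authors' value table. Of 189 values of the 24 largest differences under other settings, 104 moved by less than 0.31 (log2), the spread between the same-title day 7 arrays. Sizes rest on the floor: M200000622 was at 8.90 with the local background and 13.78 in the authors' value table.

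Counts of higher and lower probes moved over 1.5 times in these cases. With each array set to its median, 812 and 2192 were at least 2-fold apart, 293 were at least 4-fold higher and 126 at least 8-fold higher, heart-high graded probes were 260, and the day 3 pair differed at 55 probes. In the authors' value table they were 2844 and 3136 at 2-fold, 987 and 1015 at 4-fold, 463 and 399 at 8-fold and 241 and 167 at 16-fold. With an offset of 16, 604 were at least 4-fold lower, 321 and 216 were 8-fold and 161 and 70 were 16-fold apart. With the same offset, on/off probes were 63 heart-high and 23 MEF-high, and MEF-high graded ones were 581. The share of 4-fold probes in the brighter 50% of probes, which is not a count, was 100% in the main setting. It was 95.5% with that offset, a move of under 1.5 times, and 55.9% in the authors' value table. At least 8-fold lower were 76 without background subtraction and 74 with the local background.

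MEF-high on/off probes were 4 with each of these backgrounds and with heart and MEF normalized alone, and 13 with the 99th percentile of blank spots. With the 95th percentile of spots without a probe, on/off counts were 76 and 20. The 8-fold limit left 172 heart-high and 114 MEF-high graded probes and 3 MEF-high on/off ones, by its construction. The share covered by iCM was 22.1% with the local background and 25.2% in the authors' table for heart-high probes. For MEF-high probes it was 61.4% with an offset of 16, 49.5% with median scaling and 47.7% in the authors' table. For the other changes the cause was not tested. With on/off and saturated differences taken at their bounds, a setting chosen after seeing the data, the counts at 2-, 4-, 8- and 16-fold stayed within 1.5 times. Those at 32- and 64-fold were not recomputed. The authors' table and the filter for detection on both arrays give no on/off counts.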
